A study of Mus musculus with 12 samples.

Results

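Broad regions of the nuclear genome were the 303 listed regions of 300 bp or more on chromosomes 1 to 19, out of 9381 regions in all 4 lists of FOXP3 or Ku70 chromatin immunoprecipitation sequencing (ChIP-Seq). They were selected on measured values: the width of each region came from the same peak calling as its fold enrichment and p-value, so width and strength are given here as a description with no test. Rows with the same start and end were combined, and 5 dense clusters of multicopy sequence were left out, together with chromosomes X and Y, mitochondrial DNA and unplaced contigs. That left 8456 eligible regions, of which the broad ones were 3.58% and the other 8153 are called narrower below. The 12 samples form 4 sets of 2 immunoprecipitations and their input. FOXP3 was precipitated from CD4+CD25+YFP+ regulatory T cells (Tregs) of Foxp3 Yfp-Cre mice (WT) and of Xrcc6 fl/fl Foxp3 Yfp-Cre mice (KO), in which Cre under control of Foxp3 removes Ku70 from Tregs. Ku70 was precipitated from the same kind of WT Tregs and from CD4+CD25-YFP- conventional T cells (Tconv) of Foxp3 Yfp-Cre mice. All groups therefore carried the Foxp3 Yfp-Cre allele, and the age of the animals is not given in the labels. The authors pooled both replicates before calling each list, which leaves no replicate error to give. The lists hold neither expression values nor read counts, and the labels could not be checked against cell type markers or against the deleted gene.

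FOXP3 is the forkhead transcription factor that defines Tregs, and it binds DNA at forkhead motifs together with other T cell factors. Ku70, the product of Xrcc6, forms with Ku80 a ring that slides onto free DNA ends and starts repair by non-homologous end joining, and it has also been described at chromatin away from breaks. In ChIP-Seq a factor at a single site usually gives a narrow region about as wide as the DNA fragments, whereas several nearby sites, long stretches of signal or repeated sequence widen it.

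Some broad regions had an unusual sequence that can be read directly. The region in an intron of Dock2, a guanine nucleotide exchange factor for Rac in lymphocyte migration, was broad in both FOXP3 lists, and its first 300 bases in the KO list (chr11:34681863-34682162, mm10, plus strand) are shown with the forkhead core TGTTTAC or its reverse complement GTAAACA in capitals. The region in an intron of Mdga2, an immunoglobulin-domain protein of synapses, had the lowest p-value of any broad region, and its first 300 bases in the Tconv Ku70 list (chr12:67059329-67059628) are shown with CpG in capitals. The region inside Cd247, which encodes the zeta chain of the T cell receptor complex, was broad in the Treg Ku70 list, and its first 300 bases (chr1:165863454-165863753) are shown with every other 54-base unit in capitals.
Dock2: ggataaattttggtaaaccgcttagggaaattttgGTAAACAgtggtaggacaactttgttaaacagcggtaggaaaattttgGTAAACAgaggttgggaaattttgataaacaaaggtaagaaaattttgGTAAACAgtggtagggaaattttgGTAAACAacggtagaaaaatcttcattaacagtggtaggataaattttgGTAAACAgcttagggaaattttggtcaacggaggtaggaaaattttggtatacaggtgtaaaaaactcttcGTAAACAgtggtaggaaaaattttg
Mdga2: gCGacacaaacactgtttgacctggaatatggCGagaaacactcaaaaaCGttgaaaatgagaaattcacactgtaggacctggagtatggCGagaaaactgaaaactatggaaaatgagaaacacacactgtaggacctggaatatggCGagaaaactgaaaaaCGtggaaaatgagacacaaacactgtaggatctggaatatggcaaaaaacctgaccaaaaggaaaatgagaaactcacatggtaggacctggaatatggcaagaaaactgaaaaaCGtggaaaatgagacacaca
Cd247: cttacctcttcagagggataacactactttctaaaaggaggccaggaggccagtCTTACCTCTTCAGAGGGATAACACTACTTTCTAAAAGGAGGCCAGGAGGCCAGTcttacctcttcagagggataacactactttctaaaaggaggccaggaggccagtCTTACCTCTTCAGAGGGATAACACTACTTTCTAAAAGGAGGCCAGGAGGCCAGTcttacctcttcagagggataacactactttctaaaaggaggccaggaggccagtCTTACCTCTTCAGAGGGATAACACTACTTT

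Another kind of broad region lay on exons, and the coding or pseudogene bases around the summit are printed for 5 of them, with the 31 bases centred on the summit in capitals. These are the plus strand of mm10 at chr15:77015929-77016042 (Mb, KO FOXP3), chr10:86732091-86732241 (Fabp3-ps1, Treg Ku70), chr13:23555638-23555752 (Hist1h1d, Treg Ku70), chr11:48866443-48866593 (Irgm1, Treg Ku70) and chr11:99145232-99145382 (Ccr7, Treg Ku70). Mb encodes myoglobin, Hist1h1d a linker histone, Irgm1 an interferon-inducible GTPase and Ccr7 the chemokine receptor that guides T cells into lymph nodes. The 31 bases occurred once in the genome at Mb, Hist1h1d, Irgm1 and Ccr7, and 2 times at Fabp3-ps1.
Mb: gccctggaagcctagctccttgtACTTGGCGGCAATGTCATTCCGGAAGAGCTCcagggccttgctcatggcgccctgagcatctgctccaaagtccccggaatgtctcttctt
Fabp3-ps1: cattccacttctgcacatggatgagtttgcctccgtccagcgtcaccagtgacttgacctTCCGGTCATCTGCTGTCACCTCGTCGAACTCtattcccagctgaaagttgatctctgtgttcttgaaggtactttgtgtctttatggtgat
Hist1h1d: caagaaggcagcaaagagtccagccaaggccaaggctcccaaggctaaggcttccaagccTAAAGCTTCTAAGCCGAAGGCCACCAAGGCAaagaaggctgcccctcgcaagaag
Irgm1: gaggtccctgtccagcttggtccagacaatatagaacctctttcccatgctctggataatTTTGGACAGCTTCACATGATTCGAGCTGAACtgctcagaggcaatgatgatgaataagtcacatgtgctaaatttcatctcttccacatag
Ccr7: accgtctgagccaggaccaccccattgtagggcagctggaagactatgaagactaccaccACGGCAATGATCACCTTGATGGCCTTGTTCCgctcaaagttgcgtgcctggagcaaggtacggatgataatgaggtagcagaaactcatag

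The 4 lists held unequal numbers of broad regions. There were 172 in the Treg Ku70 list, 3.48% of its 4944 eligible regions (95% Wilson interval 3.00 to 4.03%), and 74 in the Tconv Ku70 list, 5.11% of 1449 (4.09 to 6.36%). The WT FOXP3 list held 37, 2.33% of 1589 (1.69 to 3.19%), and the KO FOXP3 list 20, 4.22% of 474 (2.75 to 6.43%). Intervals here and below cover counting error only. Most broad regions were close to the minimum, with 29 of 37, 12 of 20, 93 of 172 and 51 of 74 between 300 and under 350 bp in the order WT FOXP3, KO FOXP3, Ku70 in Tregs and Ku70 in Tconv cells. Widths of 500 bp or more were reached by 1, 1, 16 and 5 regions, and the widest measured 539, 586, 963 and 712 bp.

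**Figure D1:**
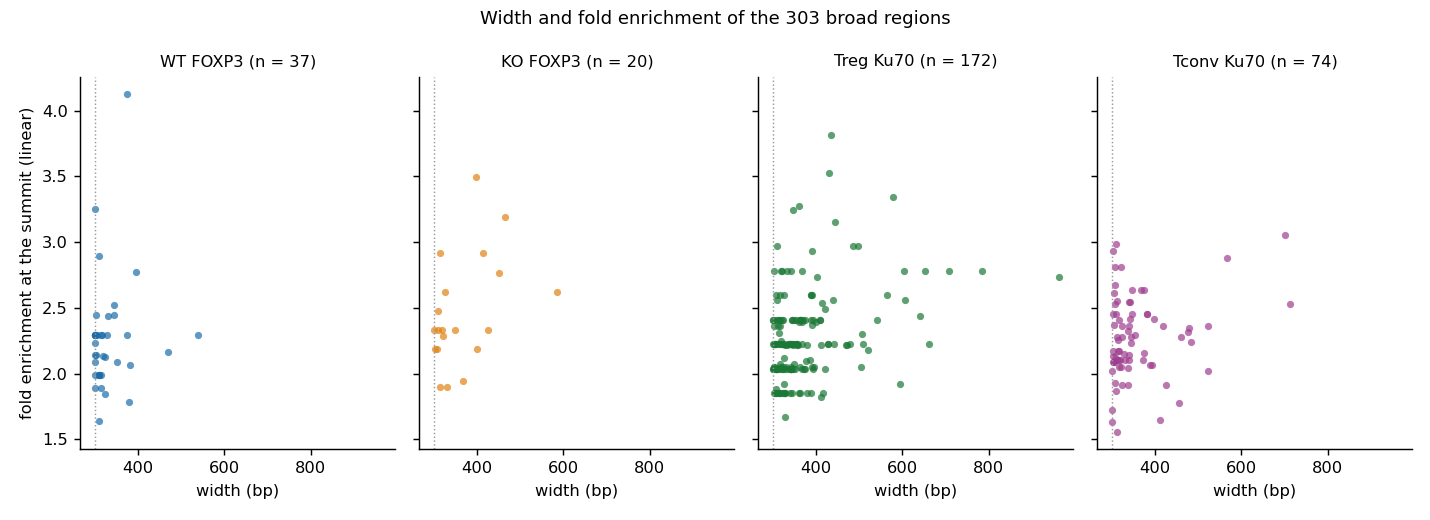
Width in bp (x axis) against the linear fold enrichment at the strongest summit (y axis) of each of the 303 broad regions, 1 point a region and 1 panel a list, with the 300 bp minimum dotted. The widest regions were in the Treg Ku70 list, up to 963 bp, and the highest fold, 4.13, was in the WT FOXP3 list at 375 bp.

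Broad regions had low enrichment, though higher than that of narrower ones in the median of each list. Their median fold enrichment over the local background was, in the same order, 2.23, 2.33, 2.22 and 2.27, against 2.01, 2.10, 2.04 and 2.16 for narrower regions. Their median −log10 p was 1.86, 2.02, 2.03 and 2.10. A q-value of 0.05 or less was reached by 0 of 37, 0 of 20, 0 of 172 and 1 of 74 broad regions, where the share over all eligible regions of each list was 0%, 0%, 0.0607% and 0.138%. That 1 region was the Mdga2 intron, where 79.8% of the bases were masked as repeats in the reference sequence. Many regions shared 1 value of strength, since 51 of the 172 Treg Ku70 members had the same −log10 p of 2.03. At the edge of the rule the narrowest members were 300 bp in each list and the widest non-members were under 300 bp by 1 to 4 bp. Regions from 290 to under 300 bp had a median fold of 2.14, 2.33, 2.04 and 2.28, and those from 300 to under 310 bp 2.23, 2.26, 2.05 and 2.14.

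Broad Ku70 regions of Tregs lay at the ends of protein-coding genes more often than narrower ones. Positions at gene ends, exonic bases and same-list neighbours were not among the planned measures. Their intervals therefore describe these regions and carry no test. Of the 172, 35 had the summit within 3 kb of the annotated end of a protein-coding gene, which is 20.3% (15 to 27%) against 6.50% (5.83 to 7.23%) of the 4772 narrower regions. The difference was 13.9 percentage points, with a 95% Newcombe interval of 8.46 to 20.5, and against regions from 200 to under 300 bp it was 14.0 (8.44 to 20.7). The starts of protein-coding genes showed less of a difference: 12 of 172 broad regions were within 3 kb of a start (6.98%) against 4.30% of narrower ones, a difference of 2.68 points with an interval of -0.32 to 7.53 that includes 0. Near an end and not near a start were 29 regions, and near a start and not near an end were 6. The regions at gene ends were not all neighbours of each other, as counting broad regions within 10 kb as 1 left 28 of 162 (17.3%). Without chromosome 11 the share was lower, 24 of 154 (15.6%). Single-copy summits gave 26 of 118 (22.0%).

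The same regions were rich in exons, again by a measure that was not planned. At least 50% of the bases lay in exons of protein-coding transcripts in 23 of 172 broad Treg Ku70 regions (13.4%, 9.08 to 19.3%) and in 3.83% of narrower ones, a difference of 9.54 points (5.20 to 15.5). Wholly exonic were 18 of 172 (10.5%) against 2.91%. At Ccr7, Txnip, Gimap4 and Cytip the wholly exonic region lay in the last exon of the gene. In the Tconv Ku70 list the shares were lower among broad regions, with 3 of 74 broad regions near a gene end (4.05%, against 7.49% of narrower ones) and 3 of 74 at least 50% exonic (4.05% against 5.24%), and both intervals of the difference included 0. Between the Ku70 lists the share of broad regions at gene ends was 16.3 points higher in the Treg list, while that of narrower regions differed by -0.99 points. Each cell type has 1 pooled list, so no interval for a difference between cell types is given. The lists differ in length and their sequencing depth was not analysed here, so a difference between cell types and a difference between libraries cannot be told apart. Leaving out measures of the peak calling itself, 30 measures in 4 lists gave 120 such differences between broad and narrower regions, some of them overlapping in what they count, of which 35 had an interval that excluded 0 before any correction.

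**Figure D2:**
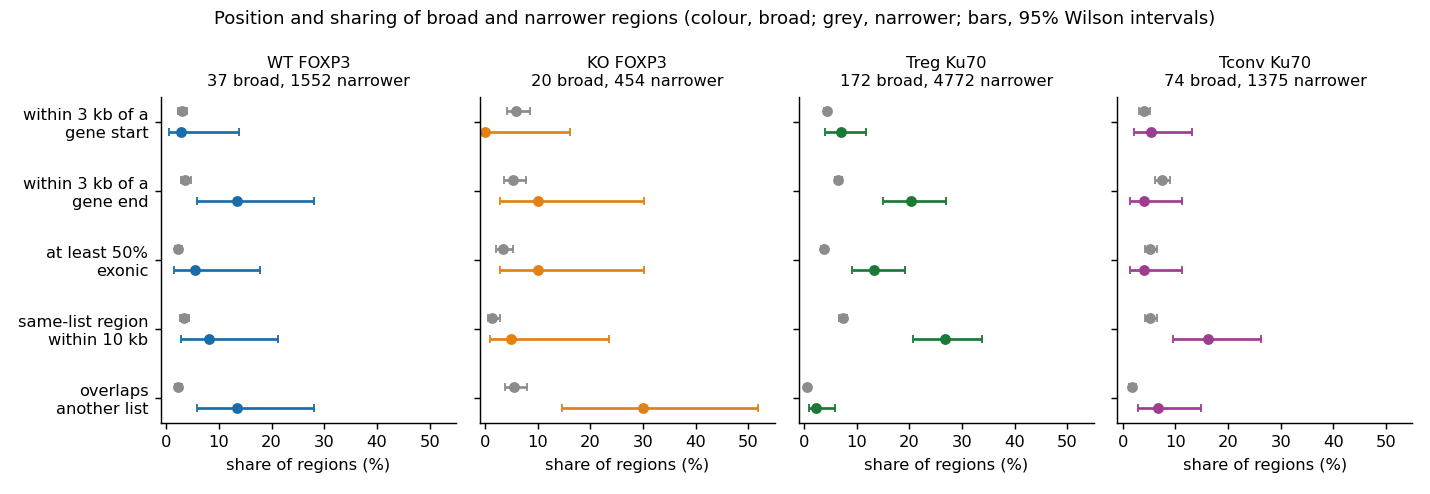
Share of regions in percent (x axis) with each property (y axis), for broad regions in colour and narrower regions in grey, 1 panel a list; points are shares and bars 95% Wilson intervals. In the Treg Ku70 panel the broad share stands at 20.3% near gene ends, 13.4% exonic and 26.7% with a neighbour, to the right of the grey points, and in the FOXP3 panels the widest separation is in overlap with another list.

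A promoter label has to be read with this in mind. By the usual rule, a summit within 3 kb of the start of any annotated transcript, 43 of 172 broad Treg Ku70 regions were at promoters (25%, 19.1 to 32.0%) against 15.8% of narrower ones, a difference of 9.16 points (3.18 to 16.2). The rule counts short transcripts that begin inside a gene. The broad region of Txnip, which encodes a binding partner of thioredoxin, was 1056 bp from an annotated transcript start, yet it lay 3153 bp from the start of the gene and 773 bp from its end. With starts of protein-coding transcripts only, the share was 14.5% of broad and 8.93% of narrower Treg Ku70 regions, a difference of 5.61 points (1.04 to 11.7). Over all 4 lists, 118 broad regions were intergenic, 90 intronic, 74 at promoters, 13 exonic and 8 in untranslated regions.

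**Figure D3:**
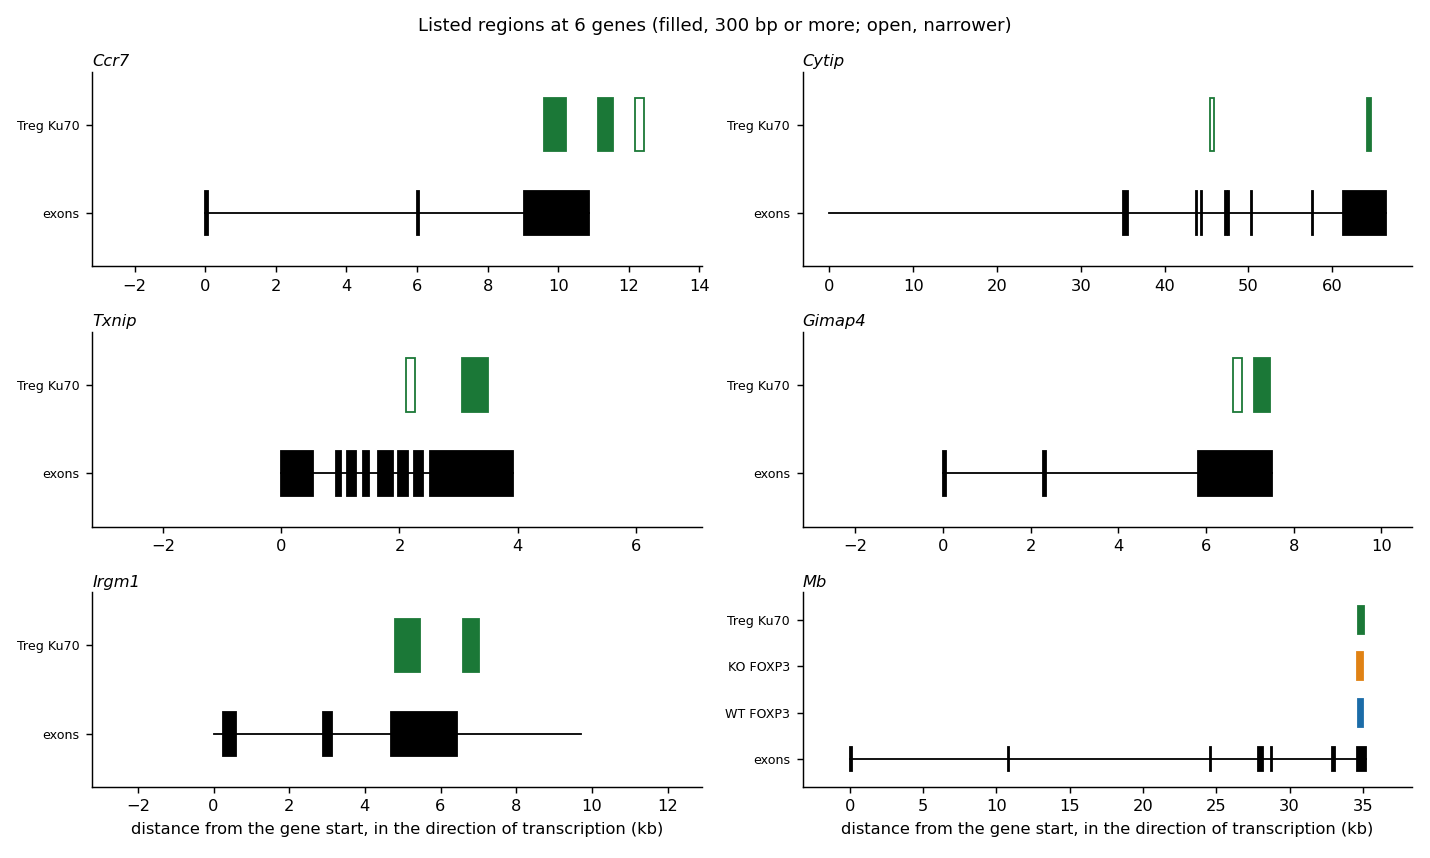
Distance from the gene start in the direction of transcription in kb (x axis) of every listed region within 3 kb of 6 genes, 1 row a list above the exons of protein-coding transcripts (black blocks); filled boxes are regions of 300 bp or more, open boxes narrower ones, and widths below 1/150 of the gene are drawn at that size. Filled boxes sit over or beyond the long last exon at Ccr7, Txnip, Gimap4 and Cytip, and 3 lists coincide on the last exon of Mb.

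A gene is counted below as having a region when a region lies inside it or within 3 kb. Of 46 T cell signalling, costimulatory and suppressor genes, Ccr7, Cd247 and Il2ra held a broad Treg Ku70 region (6.52%) and 10 a region of any width. Ccr7 had a region of 604 bp wholly within its last exon (2.78-fold, −log10 p 2.64) and another of 428 bp beginning 11117 bp from its start, just past its end (2.22-fold). Cd247 had the 387 bp region of 54-base units, 75013 bp from its start (2.10-fold). Il2ra, the alpha chain of the high-affinity interleukin-2 receptor, had 304 bp (2.78-fold) with the summit 2970 bp from its start. Of 46 T cell transcription factors and FOXP3 partners, Ets1 alone had a broad region, of 326 bp and 795 bp from its end (2.04-fold), and 10 had a region of any width. None of the 26 double-strand break repair genes and none of the 7 genes named by the study from its expression data had a broad region in any list, and 2 and 1 of them had some Treg Ku70 region. The other 3 lists had no broad region at any gene of these 4 lists. Over all 21755 protein-coding genes, 0.432% had a broad Treg Ku70 region and 8.77% a region of any width, the background for these counts. For a broad region it was 0.0644% in WT FOXP3, 0.0552% in KO FOXP3 and 0.198% in Tconv Ku70. Absence of a broad region from gene lists this short is therefore close to background.

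Other groups stood out on reading the members, and the 3 lists that follow were drawn up after their values had been seen, so their counts describe these libraries and carry no test. Histone genes of the replication-dependent clusters, whose short intronless transcripts encode proteins that package new DNA, made up the widest member: Hist1h1d, with 963 bp wholly exonic (2.73-fold). Hist1h1c had 579 bp (3.34-fold, −log10 p 4.03), Hist1h1b, with Hist1h3i beside it, 594 bp (1.92-fold), and a region at Hist1h3c and Hist1h2bb 367 bp (2.39-fold). These 4 regions touched 6 of 69 annotated histone genes, and 29 of 69 (42.0%) had a Treg Ku70 region of any width. In the Tconv Ku70 list it was 0 and in each FOXP3 list 1. Over all protein-coding genes the shares were 8.77% in Treg Ku70, 3.40% in Tconv Ku70, 2.56% in WT FOXP3 and 0.974% in KO FOXP3. Histone genes are packed closely, so 1 region can count for several: 1 of 199 bp counted for Hist1h2ao, Hist1h2bq and Hist1h4m. The 42.0% is therefore not directly comparable with 8.77%. Interferon-inducible GTPases and Schlafen genes, which restrict pathogens inside cells and hold T cells in quiescence, accounted for 10 broad regions at 7 of 24 genes. Irgm1 had 653 and 439 bp (2.78-fold and 2.56-fold), Slfn1 389 bp (2.60-fold), Gvin1 389 bp (2.41-fold, summit bases in 6 copies), and Irgm2, with Igtp beside it, 344 bp (2.41-fold). Tgtp1 and Tgtp2, a pair of near-identical genes, held 3 and 2 broad regions, whose summit bases occurred 2 times in the genome, so the authors' mapping could place the same reads at either copy. Of the 24 genes, 14 had a Treg Ku70 region of any width and 0 had any in each of the other 3 lists. For those lists 0 of 24 is close to the shares over all protein-coding genes given above. Here too 1 region can count for several genes, as at Gbp4, Gbp8 and Gbp9.

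The last group was a list of genes for RNA processing, translation and the cytoskeleton. They were taken to have abundant transcripts, which was not measured here. Broad Treg Ku70 regions lay at 4 of 12 of them: Neat1, the RNA scaffold of paraspeckles (430 bp, 3.53-fold, −log10 p 4.03), Actg1, a cytoskeletal actin (363 bp, 2.05-fold), Ddx5, an RNA helicase (396 bp, 2.05-fold), and Hnrnpa2b1, an RNA-binding protein (342 bp, 2.04-fold). Over all protein-coding genes 0.432% had a broad Treg Ku70 region and 8.77% one of any width, a background that leaves out the noncoding Neat1. Any region was found at 6 of 12 in the Treg Ku70 list, 1 in the WT FOXP3 list and 0 in the other lists. For those other lists 0 of 12 is likewise close to the share over all protein-coding genes. Further members at gene ends were Cytip, a cytohesin-interacting protein of lymphocytes (445 bp, 3.15-fold), Txnip (441 bp, 2.22-fold), and Gimap4, a GTPase of lymphocytes (351 bp, 2.22-fold, 144 bp from the end of the gene). Each of these 3 regions was wholly exonic. The strongest broad Treg Ku70 region by p-value was of another kind: 435 bp at Olfr461, an olfactory receptor gene (3.81-fold, −log10 p 5.16), with summit bases that occur 48 times in the genome.

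Broad Treg Ku70 regions also had company, by a measure that was likewise not planned. Another region of the same list lay within 10 kb of 46 of 172 (26.7%, 20.7 to 33.8%), against 7.38% of narrower regions, a difference of 19.4 points (13.3 to 26.5). In the Tconv Ku70 list it was 12 of 74 (16.2%) against 5.24%, a difference of 11 points (4.16 to 21.1). Genes with several broad regions were in the Treg Ku70 list, with 2 each at Ccr7, Irgm1, Ablim1 and Sprr2a2 beside the Tgtp genes and Olfr56 and Gm12185, which overlap them. Chromosome 11, which carries Ccr7, Irgm1, Irgm2, Slfn1 and the Tgtp genes, had the most members of the 4 lists, 31 of its 454 eligible regions (6.83%).

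Broad Ku70 regions of Tconv cells touched 43 protein-coding genes, 0.198% of all, and 2 of these also had a broad Treg Ku70 region. The widest were a pair of 712 and 701 bp regions on chromosome 16 (2.53-fold and 3.06-fold), 252692 and 265431 bp from the nearest start of a protein-coding transcript, followed by Vmn2r114, a vomeronasal receptor gene (566 bp, 2.88-fold), a region near Smok2b (523 bp, 2.02-fold) and Calcoco2, an autophagy receptor gene (522 bp, 2.36-fold). Summits within 3 kb of a protein-coding transcript start numbered 12 of 74 (16.2%, 9.53 to 26.2%), against 12.3% of narrower regions, with an interval of the difference of -3.01 to 14.1 points. The widest of them were at Sfi1, a centrosomal protein gene with multiple copies in the mouse genome (479 bp, 2.34-fold), 4931408C20Rik (411 bp, 1.65-fold), Kmt2a, a histone H3 lysine methyltransferase (388 bp, 2.07-fold), Itpr1, a calcium release channel (348 bp, 2.46-fold), and Zcchc8, a nuclear RNA surveillance factor (340 bp, 2.54-fold). Sfi1 and Sprr2a2 were the genes broad in both Ku70 lists. The E-box CACGTG, which is its own reverse complement, lay within 50 bp of the summit in 4 of 74 broad regions (5.41%, 2.12 to 13.1%) and 1.16% of narrower ones, a difference of 4.24 points (0.88 to 11.9). In the other lists the E-box was in 0 of 37 broad WT FOXP3, 0 of 20 KO FOXP3 and 2 of 172 Treg Ku70 regions, and each interval of the difference included 0.

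The FOXP3 lists had the fewest broad regions. In WT Tregs 14 protein-coding genes were touched, and the widest region (539 bp, 2.29-fold) was intergenic on chromosome 15, 485985 bp from the nearest start of a protein-coding gene. Nit1, a nitrilase-family gene, was the single protein-coding promoter, with 345 bp (2.52-fold). The strongest by p-value lay 1284 bp from the start of Gm4111 (375 bp, 4.13-fold, −log10 p 5.86). In KO Tregs 12 protein-coding genes were touched. The widest were 586 bp upstream of Igf2bp3, an RNA-binding protein gene (2.62-fold, 4166 bp from its start), 464 bp at Mb (3.19-fold), 452 bp in Aqr, a helicase of the spliceosome (2.77-fold), 425 bp at Fabp3-ps1 (2.33-fold) and 414 bp at Atp2a2 (2.91-fold). Bcl2, which opposes apoptosis, had an intronic region of 399 bp (3.50-fold, −log10 p 3.46), and none of the 20 lay within 3 kb of a protein-coding transcript start, against 10.4% of narrower regions, a difference of -10.4 points with an interval that includes 0 (-13.5 to 5.95). WT broad regions were within 3 kb of a protein-coding gene end in 5 of 37 (13.5%) against 3.61% of narrower ones, a difference of 9.91 points (2.23 to 24.4). In KO Tregs it was 2 of 20 (10.0%) against 5.29%, with an interval of -2.91 to 24.9 points.

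Broad FOXP3 regions were shared with other lists more often than narrower ones. Of the 37 WT regions 5 overlapped a region of another list by at least 1 bp (13.5%, 5.91 to 28.0%), against 2.19% of narrower regions, and of the 20 KO regions 6 did (30%, 14.5 to 51.9%), against 5.51%. The differences were 11.3 points (3.67 to 25.8) and 24.5 points (8.84 to 46.5). These 2 results largely count the same overlaps from both sides. The 5 WT regions all overlapped the KO FOXP3 list, and 5 of the 20 KO regions the WT list. Dock2, Mb and Fabp3-ps1 were broad in both. The Treg Ku70 list was overlapped by 2 of 37 WT and 3 of 20 KO regions, and the Tconv Ku70 list by 1 of 37 and 1 of 20. A wider region overlaps more by its size alone. With the summit required to fall inside the other region, 5 of 37 and 5 of 20 remained, against 1.93% and 4.41% of narrower regions, with differences of 11.6 points (3.94 to 26.1) and 20.6 points (6.59 to 42.5). Of the Ku70 regions 4 of 172 in Tregs were shared (2.33% against 0.650%) and 5 of 74 in Tconv (6.76% against 1.67%). By the summit these became 2 of 172 and 2 of 74, and the intervals of both differences then included 0.

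The 20 shared broad regions formed 15 loci, 11 of them with single-copy summits in every list. At 8 loci the lists were of the same factor. At Dock2 and Mb every listed region was broad. Dock2 was 309 bp in WT (1.64-fold, −log10 p 2.67) and 321 bp in KO Tregs (2.28-fold, −log10 p 4.81), and the Ku70 lists had no region there. The Mdga2 intron was 307 bp in Tconv (2.67-fold, −log10 p 11.2, −log10 q 4.37) and 146 bp in Tregs (2.49-fold, −log10 p 8.17, −log10 q 2.23), so the same site was strong in both Ku70 lists and broad in 1. Masked repeats made up 79.8% of its bases in Tconv, and its single-copy count covers exact 31-base matches in mm10 only. The Bcl2 intron was 399 bp in KO and 144 bp in WT Tregs (3.04-fold), and the site upstream of Igf2bp3 586 bp in KO and 281 bp in WT Tregs (2.59-fold). An intron of Lncpint, a long noncoding RNA gene, was 303 bp in WT and 193 bp in KO Tregs.

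**Figure D4:**
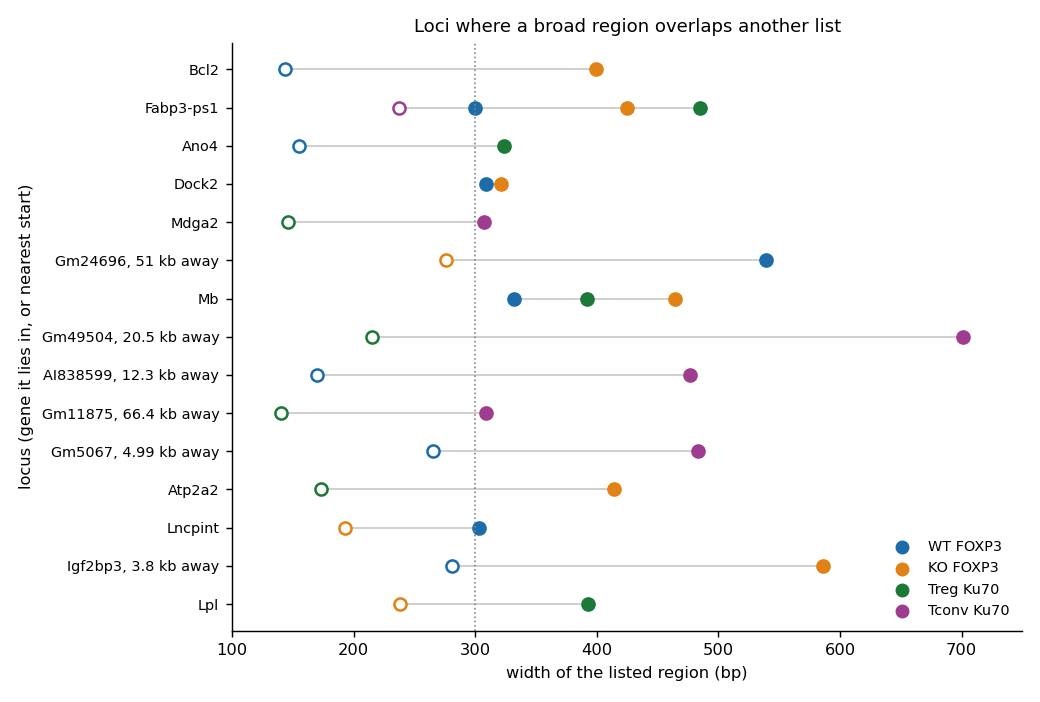
Width in bp (x axis) of the listed regions at the 15 loci where a broad region overlaps another list (y axis, by the gene the locus lies in or the nearest transcript start), coloured by list, filled at 300 bp or more and open below it, with the minimum dotted. Mb has 3 filled points and Dock2 2, Fabp3-ps1 has 3 filled and 1 open, and the other 12 loci have 1 filled and 1 open point.

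Shared loci in exons were at Mb, Atp2a2 and Lpl. The last exon of Mb was listed at 332 bp in WT FOXP3 (2.44-fold), 464 bp in KO FOXP3 (3.19-fold) and 392 bp in Treg Ku70 (2.60-fold), with 100%, 96.3% and 100% of the bases exonic. Atp2a2, a calcium pump, had 414 bp in KO FOXP3 and 173 bp in Treg Ku70 (2.97-fold), both wholly exonic and classed as untranslated region. Lpl, lipoprotein lipase, had 393 bp in Treg Ku70 (2.41-fold) and 238 bp in KO FOXP3 (2.33-fold), both wholly exonic. Fabp3-ps1, inside Ttc41, was the single locus found in all 4 lists, at 300, 425, 485 and 237 bp with folds of 3.25, 2.33, 2.97 and 2.07. It is a processed copy of Fabp3, the heart fatty acid binding protein, and its region in the Treg Ku70 list matched the spliced Fabp3 transcript over 485 bases at 99.4% identity with 0 gaps. In a list of 40 striated muscle genes drawn up after these loci had been seen, 1 gene had a region of any width in WT FOXP3, 3 in KO FOXP3, 6 in Treg Ku70 and 0 in Tconv Ku70, that is 2.5%, 7.5%, 15% and 0%, where 2.56%, 0.974%, 8.77% and 3.4% of all protein-coding genes had one. Besides Mb, Atp2a2 and Lpl, the genes of that list with a Treg Ku70 region were Pln, an inhibitor of the calcium pump (295 bp, 2.78-fold, wholly exonic), Actn2, an actinin of the sarcomere (163 bp, 2.60-fold), and Tpm1, a tropomyosin (197 bp, 2.04-fold). The other genes of the list, among them Myh6, Actc1, Tnnt2, Tnni3 and Myl2 of the contractile apparatus, had no region in any list. Whether Tregs express the genes of that list, or other tissue has a part in these regions, was not tested.

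Tandem repeats were rare among broad regions. In 7 of 303 at least 60% of the bases matched the bases a fixed distance of 10 to 100 away, within 150 bases on each side of the centre, against 66 of 8153 narrower regions. Cd247 matched at 100% at a spacing of 54 bases, and its summit bases occurred 16 times in the genome. An intron of Fbxl7 matched at 97.5% at 60 bases (374 bp, 2.41-fold, Treg Ku70) and the exon of Calcoco2 at 66.4% at 21 bases. At Dock2 the identity was 66.1% at 24 bases and 72.2% at 96, and at Mdga2 it was 61.7% at 58 bases. The Dock2 sequence printed above holds 6 forkhead cores, and of the 8456 eligible regions the 2 Dock2 regions were the ones with 3 or more.

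**Figure D5:**
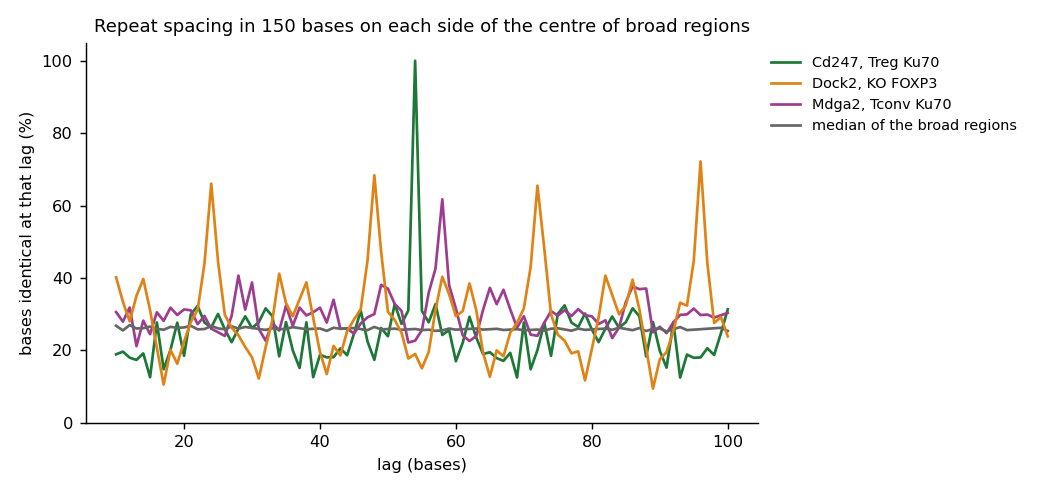
Percent of bases identical to the base a given number of positions away (y axis) for spacings of 10 to 100 bases (x axis), in 150 bases on each side of the centre of 3 broad regions and as the median of all 303. The median stays near 26%, Cd247 reaches 100% at 54 bases, Dock2 peaks at 24, 48, 72 and 96 bases and Mdga2 at 58.

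The forkhead core was also counted over all broad regions, Dock2 included. Anywhere in the region it was present in 1 of 37 broad WT FOXP3 regions (2.70%) and 2.38% of narrower ones, in 4 of 20 KO FOXP3 regions (20%) and 2.42%, in 5 of 172 Treg Ku70 regions (2.91%) and 2.24%, and in 1 of 74 Tconv Ku70 regions (1.35%) and 1.60%. The 1 in WT was Dock2. The 4 in KO were Dock2, the Igf2bp3 site, Hist1h2be (314 bp, 2.91-fold) and Lrrc6 (309 bp, 2.33-fold). The next counts use 50 bp on each side of the summit, a window of equal length for all regions. There the core was in 2 of 20 broad KO regions (10.0%, 2.79 to 30.1%) and 1.76% of narrower ones. The difference of 8.24 points (0.83 to 28.4) rests on 2 regions, 1 of them Dock2. Against regions from 200 to under 300 bp it was 7.30 points with an interval that includes 0 (-1.45 to 27.5). In WT the core was in 1 of 37 broad regions, again Dock2, against 1.48% of narrower ones. The summit lay on sequence with more than 1 copy in 97 of 303 broad regions (32.0%), with 19 above 1000 copies. By list it was 29.7%, 40.0%, 31.4% and 32.4%, against 30.9%, 33.5%, 25% and 23.6% of narrower regions, and the interval of each difference included 0. The RUNX core TGTGGT, also counted on both strands around the summit, was in 13.5%, 15%, 8.72% and 10.8% of broad regions and 7.73%, 11.7%, 7.77% and 8.44% of narrower ones, each difference with an interval that includes 0. No broad or narrower region aligned to mitochondrial DNA at a BLAST expect value of 1e-05.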

How the data were processed

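FOXP3 and Ku70 ChIP-Seq was analysed from 4 deposited peak lists. After trimming (trim_galore), mapping to mm10 (Bowtie2) and removal of duplicates (picard), the authors called both replicates together against the input with MACS2 at a p-value of 0.05 without a model and with an extension of 140 bp, which is also the width of the narrowest listed regions; tool versions are not given in the sources used here. The deposited fold enrichment is a ratio over the local background at the summit, and the −log10 p-values and q-values were computed by the authors with MACS2. The deposited score column was not used. Names of regions carry other terms (iTreg, Teff, CKO) than the labels, which were followed.

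Regions with the same coordinates were combined, keeping the strongest summit, and classed against GENCODE M21, with a promoter within 3 kb of any transcript start and with gene starts and ends taken from the gene record. Copies were counted as exact matches of the 31 bases at the summit on both strands of mm10. Shares carry 95% Wilson intervals and differences 95% Newcombe intervals, not corrected for multiple comparisons, which cover counting error only and treat regions of 1 pooled list as independent. Tables were made in Python 3.11.15 with pandas 2.3.3 and numpy 2.4.6, figures with matplotlib 3.10.9 and alignments with BLAST 2.17.0, and the counting was tested on simulated regions. Read depth was not analysed here. The regions and gene lists were chosen with earlier results of these data known, and the lists of interferon-inducible GTPases, abundant genes, histones and striated muscle genes were added after the values were seen. Gene starts and ends, exonic bases, same-list neighbours and tandem spacing were measures outside the plan. Named regions were, in each list, the 5 widest, the 5 with the lowest p-value, those shared with another list, the 5 widest at a protein-coding promoter and those at listed genes; other named regions (Cytip, Txnip, Gimap4, Fbxl7, Lrrc6) and all printed sequences outside the shared loci were chosen after their values were seen. Some genes that these rules would name are not reported here.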

Additional observations from a re-analysis of the deposited data

How the results depend on the processing

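Each list was called on pooled replicates, so leaving out a replicate could not be run. No paired analysis was possible because the lists hold no value per replicate. Of 156 alternative values 109 stayed within 1.5 times the count or within the interval and 47 moved. A reversal of direction applies only to differences, of which 0 reversed. A value counted as unchanged can still have an interval that includes 0. The Treg Ku70 difference in sharing was 1.68 points (0.23 to 5.18) against all narrower regions. Against regions from 200 to under 300 bp it was 1.35 points (-0.22 to 4.87). With WT FOXP3 first, then KO FOXP3, Treg and Tconv Ku70, the number of broad regions was 130, 51, 540 and 215 at a minimum of 250 bp, 2, 6, 38 and 13 at 400 bp, 1, 1, 16 and 5 at 500 bp, and 0, 0, 0 and 1 at a −log10 q of at least 1.3. At a −log10 p of at least 2 it was 12 in WT FOXP3, 95 in Treg Ku70 and 45 in Tconv Ku70. The promoter share was 5.41%, 5%, 9.88% and 8.11% within 1 kb of a start and 2.70%, 0%, 14.5% and 16.2% with protein-coding starts only. At 400 bp it was 50% in WT FOXP3 and 44.7% in Treg Ku70, and at a −log10 p of at least 2 it was 50% in WT FOXP3. The shared share at 400 bp was 50% in WT FOXP3, 66.7% in KO FOXP3 and 23.1% in Tconv Ku70, and in WT FOXP3 at a −log10 p of at least 2 it was 33.3%. In Tconv Ku70 it was 2.22% in regions with at most 50% masked bases and 2.70% by the summit. The share with a multi-copy summit was 16.2% in WT FOXP3 with 51 bases, and at 400 bp 50% in WT FOXP3, 16.7% in KO FOXP3 and 42.1% in Treg Ku70. The share within 3 kb of a gene end, an alternative set chosen after seeing the data, was 0% in WT FOXP3, 33.3% in KO FOXP3 and 28.9% in Treg Ku70 at 400 bp, and 33.3% in WT FOXP3 at a −log10 p of at least 2. Within 1 kb of an end it was 2.70% in WT FOXP3, 11.6% in Treg Ku70 and 1.35% in Tconv Ku70. In these settings fewer or more regions entered by construction, and the cause of other moves was not tested.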

Other observations

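By the nearest transcript start, 84 of 172 broad Treg Ku70 regions, 36 of 74 broad Tconv Ku70 regions, 19 of 37 broad WT FOXP3 regions and 10 of 20 broad KO FOXP3 regions were closest to a gene model named only by a Gm or Rik number. Histone genes were nearest to 4 of 172 broad Treg Ku70 regions (2.33%) and 10 of 4772 narrower ones (0.210%). Vomeronasal receptor genes (Vmn) were nearest to 2 broad regions each in the WT FOXP3, Treg Ku70 and Tconv Ku70 lists, and olfactory receptor genes (Olfr) to 1, 3 and 1.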
